A study of Mus musculus with 56 samples.

Results

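Cortical thymic epithelial cells (cTECs) taken 12 days after parturition (D12) were compared with cTECs of non-pregnant controls (NPC). The labels gave 3 cTEC samples of D12 and 3 of NPC, which is 6 of the 56 samples of the series and 6 of its 28 cTEC samples. All mice were B6.SJL females. The D12 females, like those of D-2 and D6 described next, had been mated with BALB/cJ males. The pups of D6 and D12 females were removed at birth, so that they did not nurse, and the NPC females were age-matched and not pregnant. Each sample came from the thymus of 1 mouse, digested with papain, collagenase IV and DNase, enriched for EpCAM+ cells on beads and sorted. cTECs were the EpCAM+ CD45- cells that did not bind the lectin UEA1, and medullary thymic epithelial cells (mTECs) were those that did. cTECs of late gestation, taken 2 days before parturition (D-2), and of day 6 postpartum (D6), 3 samples each, were used to find the genes that moved after parturition. The question was which genes had returned to the NPC level by D12, which lay past it, and which still differed from it.

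The thymus shrinks in pregnancy and grows back after delivery. cTECs line the thymic cortex, where they attract T cell progenitors, commit them to the T cell lineage through Notch signals and show them the peptides on which positive selection depends. The transcription factor Foxn1 sets up this program, and among its known targets are the Notch ligand Dll4, the chemokine Ccl25 and the thymoproteasome subunit Psmb11.

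Levels are given as FPKM, fragment counts scaled to the length of the gene and the size of the library. Differences were tested with limma-voom on rounded expected counts for the 15845 genes whose FPKM averaged 0.5 or more in cTECs. Called genes had both a fold change of 2 or more and a p of 0.01 or less after Benjamini-Hochberg adjustment. Fold changes are log2, with their standard error (SE), and rest on n = 3 against n = 3. Total expected counts were 6718196 to 12974700 in NPC and 6470030 to 40369904 in D12. The D12 samples resembled each other most: the median SD of a gene over the 3 samples, on the log2(FPKM + 0.5) scale, was 0.236 for D12, 0.489 for NPC, 0.387 for D-2 and 0.358 for D6. NPC replicate 3 stood apart from the other NPC samples. Its mt-Rnr2, a mitochondrial ribosomal RNA, was at 192 FPKM against 4480 and 3830, and the pseudogene Gm3699 was at 6780 FPKM against 0 in both others. D6 replicate 3 shared both features, with 179 and 5840 FPKM. Values without NPC replicate 3 are therefore given beside many of the list medians and named genes, though not beside all. The sorted cells carried cTEC markers in all 6 samples, with a summed FPKM of 8 markers of 4330 to 7570 in NPC and 10100 to 11400 at D12, but they also carried medullary ones. The chemokine Ccl21a, which medullary cells make, was at 2490 to 4600 FPKM in NPC and 2750 to 5350 at D12, and the autoimmune regulator Aire at 1.15 to 16.5 and 2.63 to 6.39 FPKM. In bulk samples, fewer cells of a type and less RNA per cell cannot be told apart.

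No gene differed between D12 and NPC at the thresholds, 0% of the 15845 genes tested. The smallest adjusted p was 0.461, while 1481 genes had an unadjusted p under 0.05, 843 of them higher at D12 and 638 lower. The edgeR quasi-likelihood test also called 0 genes, and the DESeq2 Wald test called 23, of which 21 were lower at D12. The median log2 fold change over all genes was 0.07. For 7519 genes, 47.5% of those tested, the 95% interval of the fold change lay wholly within 2-fold of NPC in either direction, and for the remainder the samples could not place the gene within that range. In 1109 genes (7%) all 3 D12 samples lay above all 3 NPC samples, and in 1162 (7.33%) all 3 lay below. These shares are the background for the counts of genes whose groups do not overlap, given for the gene groups that follow. They pool genes of all levels, and no share among genes of like level was computed. Lists of abundant genes can exceed them at small fold changes, as the cytosolic ribosomal protein genes did (50.6% above NPC, median 0.30). A share above the background is therefore not particular to a list. In 263 and 206 of these genes the fold change was also at least 2.

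**Figure D1:**
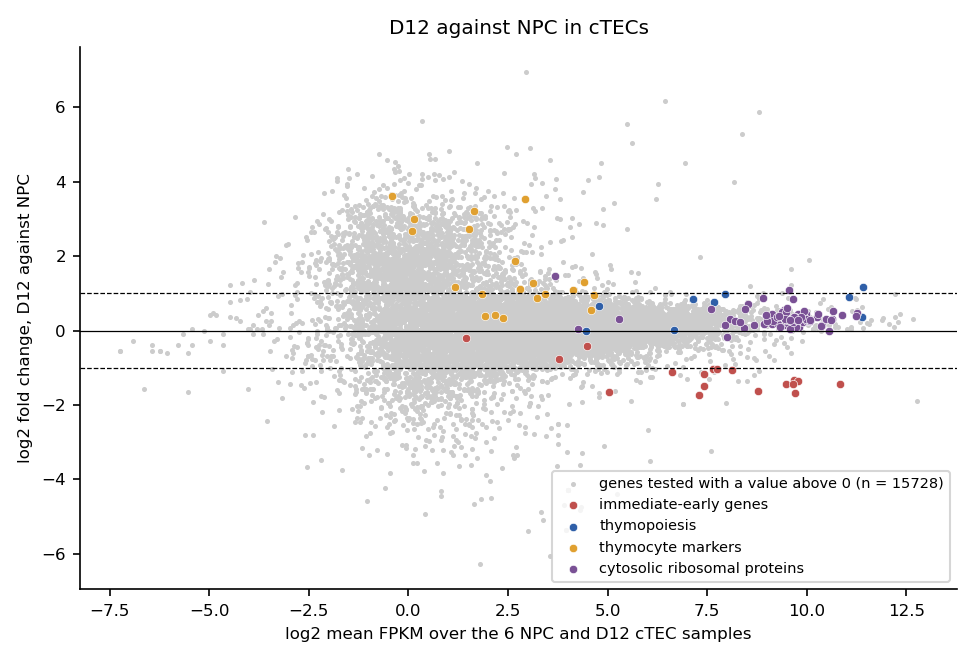
Log2 fold change of D12 against NPC in cTECs (y axis) against log2 mean FPKM over the 6 samples (x axis), for the 15728 tested genes with a value above 0 in these samples. Coloured points are the members of 4 gene lists, and dashed lines mark a fold change of 2. The immediate-early genes lie under 0, those at high level mostly under the lower dashed line, and the cytosolic ribosomal protein genes form a narrow band a little above 0.

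By contrast, 284 genes were called between D12 and D-2 (1.79% of genes), 151 higher at D12 (0.953%) and 133 lower (0.839%), and 213 were called between D6 and D-2 (1.34%), 107 higher at D6 (0.675%) and 106 lower (0.669%). Both counts depended on single libraries: the first was 183 without D-2 replicate 2, 155 without D12 replicate 1 and 120 without D12 replicate 2, and the second was 67, 60 and 108 without D-2 replicates 1, 2 and 3 and 135, 88 and 135 without D6 replicates 1, 2 and 3. D-2 against NPC gave 0 calls (0%), with 1564 genes at an unadjusted p under 0.05, 0 by edgeR and 96 by DESeq2. The NPC samples enter both that comparison and D12 against NPC, and their spread was the largest of the 4 cTEC groups compared here. A gene that was not called against NPC is therefore not shown to be at the NPC level, and the intervals are given for that purpose.

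A list of 10 genes that support T cell development was followed in full. In 6 of them (Prss16, Cd83, Ccl25, Dll4, Psmb11 and Ctsl) all 3 D12 samples lay above all 3 NPC samples, against 7% of all genes. None was called, with adjusted p-values from 0.528 to 0.981, and 6 had an unadjusted p under 0.05, as did 1481 of all 15845 genes. The median log2 fold change of the list was 0.71 with all samples and 0.43 without NPC replicate 3, and 7 of the 10 then lay above both other NPC samples, against 15.9% of all genes. Against D-2, 8 of the 10 rose by D12 (0.953% of all genes did). This list was chosen with earlier results of these data known. The authors had already reported how these genes changed after parturition, from the same series of samples. The counts and shares of the list, against NPC and against D-2, are therefore a description only.

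The sequences around the RefSeq starts of those of the 6 genes that the RefSeq promoter table holds are shown first. They were picked because the D12 and NPC samples of these genes did not overlap, although none was called. The windows of Psmb11, Ctsl and the second start of Ccl25 lie wholly inside the gene spans given below. They were chosen after the values were seen. Each runs from 250 bases before the transcription start to 50 after it, 5′ to 3′ on the strand of the gene, in the build GRCm38.p6, and capitals mark GACGC, a core sequence bound by Foxn1, read on either strand (GCGTC on the other).
Psmb11, chr14:54625060-54625359, plus strand: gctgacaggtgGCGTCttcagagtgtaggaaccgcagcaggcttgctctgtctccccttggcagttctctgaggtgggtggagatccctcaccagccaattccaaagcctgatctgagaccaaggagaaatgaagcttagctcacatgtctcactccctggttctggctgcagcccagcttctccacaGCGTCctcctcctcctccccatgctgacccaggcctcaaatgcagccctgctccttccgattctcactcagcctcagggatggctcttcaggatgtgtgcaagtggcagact
Dll4, chr2:119325534-119325833, plus strand: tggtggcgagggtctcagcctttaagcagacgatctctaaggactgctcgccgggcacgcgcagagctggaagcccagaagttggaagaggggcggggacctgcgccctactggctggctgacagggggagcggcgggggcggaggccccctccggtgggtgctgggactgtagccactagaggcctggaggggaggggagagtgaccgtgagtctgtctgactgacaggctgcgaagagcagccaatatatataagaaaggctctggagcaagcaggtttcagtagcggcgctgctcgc
Ccl25, first start, chr8:4324960-4325259, plus strand: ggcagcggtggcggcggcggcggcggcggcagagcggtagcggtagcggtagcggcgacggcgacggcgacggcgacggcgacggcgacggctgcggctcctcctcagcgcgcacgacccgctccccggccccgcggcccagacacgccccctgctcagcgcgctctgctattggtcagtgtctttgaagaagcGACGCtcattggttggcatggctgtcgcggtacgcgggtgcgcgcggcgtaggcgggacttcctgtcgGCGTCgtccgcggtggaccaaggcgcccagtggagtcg
Ccl25, second start, chr8:4349338-4349637, plus strand: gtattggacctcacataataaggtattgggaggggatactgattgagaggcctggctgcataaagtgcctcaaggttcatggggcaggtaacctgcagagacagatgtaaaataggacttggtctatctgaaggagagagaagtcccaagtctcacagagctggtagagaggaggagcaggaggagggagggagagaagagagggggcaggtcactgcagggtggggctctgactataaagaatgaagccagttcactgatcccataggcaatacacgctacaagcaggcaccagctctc
Ctsl, chr13:64370471-64370770, minus strand: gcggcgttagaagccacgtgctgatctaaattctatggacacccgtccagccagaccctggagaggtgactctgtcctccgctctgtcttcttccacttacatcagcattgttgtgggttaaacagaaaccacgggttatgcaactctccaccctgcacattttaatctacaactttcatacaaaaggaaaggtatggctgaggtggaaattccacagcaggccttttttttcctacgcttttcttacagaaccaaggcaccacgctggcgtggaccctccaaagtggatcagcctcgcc
The table held 8 promoters of 7 genes of the list. The motif was in 4 of the 8, and in 27.2% of all 32851 promoters of that length. Psmb11 had 2 matches in this window, the first start of Ccl25 also had 2, and Cxcl12 and Kitl, which are not printed, had 1 each. A match is a description of the letters only.

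Prss16 (chr13:22002173-22009742), a serine protease of cTECs that takes part in making the peptides of positive selection, was at 3060, 2590 and 2550 FPKM at D12 and at 1440, 2020 and 1190 FPKM in NPC. The groups did not overlap, the log2 fold change was 0.91 (SE 0.23, unadjusted p = 0.00347, limma-voom), and its 95% interval ran from 0.38 to 1.43. Without NPC replicate 3, the lowest of the NPC samples, Prss16 had a log2 fold change of 0.66. At D-2 it had been at 278, 170 and 214 FPKM, so that it rose by 3.71 log2 units between D-2 and D12 (SE 0.18, limma-voom adjusted p = 1.45e-05).

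Ccl25 (chr8:4325210-4360020), the chemokine that draws progenitors into the thymus, was at 3820, 3390 and 3720 FPKM at D12 and at 2000, 2510 and 882 FPKM in NPC. Its log2 fold change of 1.17 (SE 0.36) became 0.69 without NPC replicate 3, the lowest of the NPC samples. It too rose from D-2, where it was at 535, 240 and 404 FPKM.

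Dll4 (chr2:119325784-119335962), the Notch ligand that commits progenitors to the T lineage, was at 36.4, 31.7 and 31.3 FPKM at D12 and at 20.4, 25.8 and 19.8 FPKM in NPC. The groups were apart, with a log2 fold change of 0.66 (SE 0.19) and an interval of 0.23 to 1.10. At D6 the gene stood at 69.9, 45.1 and 57.8 FPKM, above every D12 sample, and at D-2 at 5.37, 3.03 and 3.13 FPKM. No test was run between D6 and D12.

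Psmb11 (chr14:54621433-54629556), the thymoproteasome subunit found in cTECs, was at 397, 249 and 296 FPKM at D12 and at 231, 227 and 73.8 FPKM in NPC. Its log2 fold change was 0.99 (SE 0.43), and 0.45 without NPC replicate 3, where the gene was lowest. Cd83 (chr13:43784775-43803132), which on cTECs is needed for CD4 T cell development, was at 210, 148 and 180 FPKM at D12 and at 102, 142 and 69 FPKM in NPC. Its log2 fold change was 0.84 (SE 0.27), and 0.57 without NPC replicate 3. Ctsl (chr13:64359337-64370890), the lysosomal protease cathepsin L, was at 2670, 3060 and 3150 FPKM against 2060, 2340 and 2660, with its lowest D12 sample barely above its highest NPC sample and a log2 fold change of 0.36 (SE 0.14).

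Foxn1 itself (chr11:78357577-78386558) overlapped between the groups, at 344, 186 and 207 FPKM at D12 and 186, 220 and 67.8 FPKM in NPC. Its log2 fold change was 0.76 (SE 0.44, interval -0.22 to 1.75) with all samples and 0.25 without NPC replicate 3. Against D-2, where it was at 109, 74.3 and 92.2 FPKM, Foxn1 rose by 1.42 log2 units by D12 (SE 0.23, limma-voom adjusted p = 0.00533).

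The factors that feed progenitors were nearest to NPC. Il7 (chr3:7569994-7613760), the cytokine on which early thymocytes depend, was at 107, 90.0 and 106 FPKM at D12 and 98, 122 and 87.0 FPKM in NPC, with an interval of -0.39 to 0.43. Kitl (chr10:100015630-100100416), the ligand of Kit, was at 24.4, 26.4 and 18.8 FPKM against 12.7, 25.3 and 25.1, with an interval of -0.43 to 0.40. For both, as for Cxcl12 (chr6:117168535-117181367), the chemokine that holds progenitors in the cortex, the interval lay within 2-fold of NPC. Cxcl12 was at 896, 728 and 652 FPKM against 571, 614 and 707, a log2 fold change of 0.28 (SE 0.16). Kitl had been at 44.8, 41.7 and 40.9 FPKM at D6, above all D12 samples, and it was not called between D12 and D-2. Cxcl12 rose between D-2 and D12 by 1.11 log2 units (SE 0.16).

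**Figure D2:**
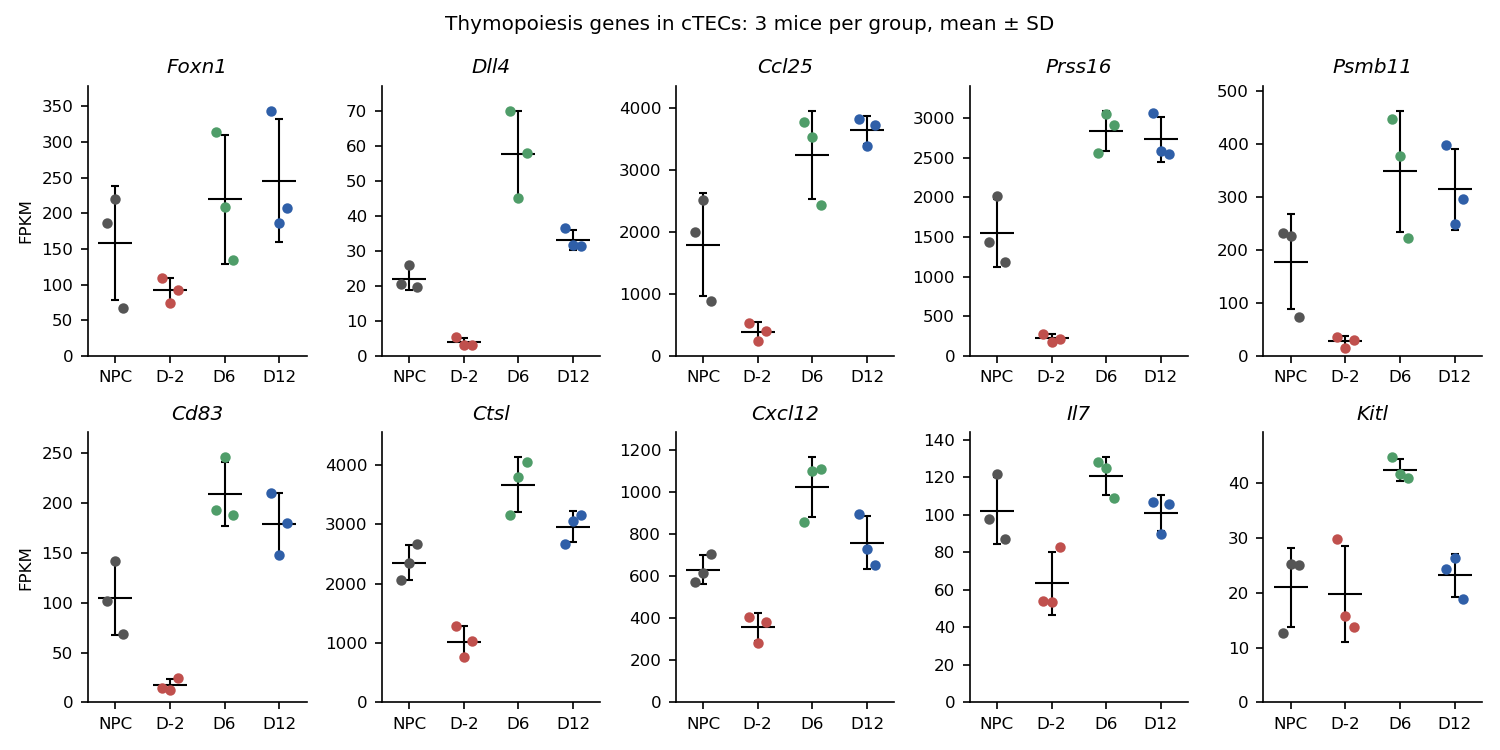
FPKM (y axis, from 0) of the 10 thymopoiesis genes in cTECs of NPC, D-2, D6 and D12, with each of the 3 mice as a point and the mean ± SD as a black bar. Prss16, Ccl25, Dll4, Psmb11, Cd83 and Ctsl have all D12 points above all NPC points, while Foxn1, Cxcl12, Il7 and Kitl overlap with NPC.

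The samples of D6 and D-2 share no mouse with those of D12 and NPC, so the 213 genes called between D6 and D-2 can be placed on the second comparison without using its values. Of these genes, 119 (55.9%, against 47.5% of all genes) had an interval within 2-fold of NPC at D12, 0 were called above NPC and 0 below, and 94 were unresolved. The genes that had risen and those that had fallen had medians on different sides of NPC.

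Of the 107 genes that rose by D6, 100 had a positive fold change at D12 against NPC, with a median log2 fold change of 0.36. The interval lay within 2-fold of NPC for 68 of them (63.6%). All 3 D12 samples lay above all 3 NPC samples in 40 (37.4%, against 7% of all genes), and all 3 below in 0. Without NPC replicate 3 the median was 0.33, the interval lay within 2-fold for 93 genes (47.6% of all genes do so in that fit), and 48 of the 107 lay above both other NPC samples, against 15.9% of all genes. At D-2 the same genes had a median log2 fold change of -0.96 against NPC. The D-2 samples were also used to choose these genes, which favours low D-2 values, so this median is a description only.

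Of the 106 genes that fell by D6, 38 had a positive and 68 a negative fold change at D12 against NPC, with a median of -0.18. The interval lay within 2-fold of NPC for 51 (48.1%, near the 47.5% of all genes). All 3 D12 samples lay below all 3 NPC samples in 15 (14.2%, against 7.33%) and above in 0. Their median at D-2 against NPC was 1.04, again a description, since the choice favours high D-2 values. When the set was drawn without D6 replicate 3, it held 76 genes that rose and 59 that fell. The interval lay within 2-fold of NPC for 65 of these 135 (48.1%, near the 47.5% of all genes), so that the larger share of the 213 genes was not seen. The medians were 0.50 and -0.38 at D12 against NPC. All D12 samples were above NPC in 34 of the 76 (44.7%) and below NPC in 24 of the 59 (40.7%).

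**Figure D3:**
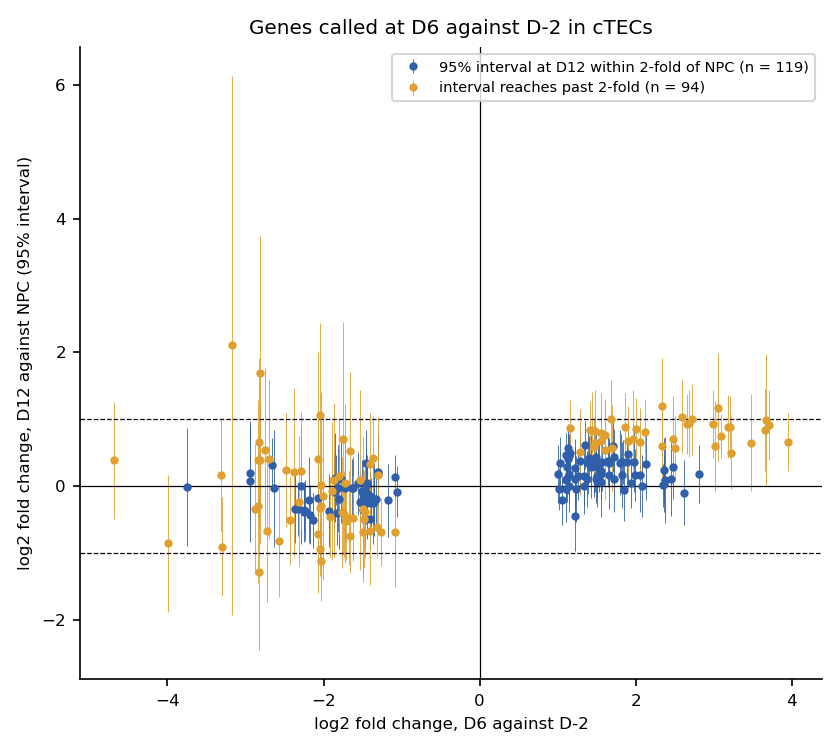
Log2 fold change of D12 against NPC with its 95% interval (y axis) against that of D6 against D-2 (x axis) for the 213 genes called between D6 and D-2 in cTECs. Dashed lines mark 2-fold of NPC, and blue points are the 119 genes whose interval lies between them. Most of the 107 genes that rose by D6 lie above 0, and the 106 that fell lie on both sides of it.

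The 5 genes with the largest rise by D6 were Dll4, Prss16, Psmb11, Cd83 and Inmt. Inmt, an N-methyltransferase of small amines, was at 88.9, 65.3 and 95.4 FPKM at D12, 53.4, 81.9 and 30.7 FPKM in NPC and 20.3, 4.38 and 3.65 FPKM at D-2. Its D12 and NPC samples overlapped.

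The 5 genes with the largest fall were Serpina3n, Aoc1, Dscaml1, Cdhr5 and Vegfd. Serpina3n, an acute-phase protease inhibitor, stood at 178, 175 and 239 FPKM at D-2, at 9.59, 6.51 and 7.24 FPKM at D6 and at 28, 22.5 and 28.6 FPKM at D12. NPC spanned 40.7, 11.2 and 24.4 FPKM, so that its D12 samples lay inside the NPC range and above every D6 sample. Vegfd, a growth factor of lymphatic vessels, was at 2.84, 4.01 and 2.48 FPKM at D12 and 5.50, 5.65 and 4.46 FPKM in NPC, without overlap, and its log2 fold change was -0.91 (SE 0.33, limma-voom adjusted p = 0.53). At D-2 it had been at 14.3, 14.8 and 15.6 FPKM. Aoc1, a diamine oxidase, was at 2.23, 6.26 and 5.69 FPKM at D12 against 9.40, 11.4 and 6.08 FPKM in NPC. Cdhr5, a cadherin of microvilli, was at 5.35, 10.4 and 5.14 FPKM against 11.5, 4.08 and 5.40. Dscaml1, a cell adhesion molecule, was at 2.84, 2.2 and 4.6 FPKM against 4.04, 4.07 and 2.65, and both overlapped with NPC.

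The 284 genes called between D12 and D-2 share the D12 samples with the comparison against NPC, so their position is a description. The 151 that rose had a median log2 fold change of 0.59 against NPC, with 61 intervals within 2-fold (40.4%, against 47.5% of all genes) and 65 genes without overlap above NPC (43.0%, against 7%). The 133 that fell had a median of -0.51, with 42 intervals within 2-fold (31.6%) and 60 genes without overlap below it (45.1%, against 7.33%). Among those that rose, 0.953% of all genes, were 7 of the 8 cTEC markers and 7 of the 21 cholesterol synthesis genes. Among those that fell, 0.839% of all genes, were 12 of the 18 immediate-early genes and 6 of the 11 tested steroid-responsive genes.

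Immediate-early genes, transcription factors and regulators that switch on within minutes of a stimulus, gave the lowest median of the gene lists. All 18 had a negative fold change at D12, with a median of -1.33, and in 15 of the 18 (83.3%, against 7.33% of all genes) all D12 samples lay below all NPC samples. The list was chosen with earlier results of these data known. None was called by limma-voom, and 10 of the 23 genes that DESeq2 called, out of 15845 tested, were on this list.

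Fos, a subunit of the AP-1 factor, was at 1060, 655 and 1190 FPKM at D12 and 2170, 1930 and 4010 FPKM in NPC, and at 3310, 2880 and 2890 FPKM at D-2. Klf4, a zinc-finger factor, was at 74.6, 47.0 and 76.8 FPKM at D12 against 147, 253 and 348 FPKM in NPC, a log2 fold change of -1.74 (SE 0.27, limma-voom adjusted p = 0.528). Fosb, another AP-1 subunit, was at 394, 263 and 431 FPKM against 758, 718 and 2470. In each of these genes all NPC samples lay above all D12 samples. Without NPC replicate 3 the log2 fold changes of Fos, Klf4 and Fosb went from -1.44, -1.74 and -1.68 to -1.12, -1.43 and -1.08.

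The level of the list followed single libraries as well as groups. Its summed FPKM was 4260, 2880 and 4780 at D12, 7700, 8230 and 18300 in NPC, 10900, 10600 and 10500 at D-2, and 4240, 4010 and 15300 at D6. The highest values belonged to NPC replicate 3 and D6 replicate 3, the samples with low mt-Rnr2 and with Gm3699. Without NPC replicate 3 the list median was -0.95, and 15 of the 18 genes still lay below both other NPC samples (12.9% of all genes do so). Between D12 and D-2, 12 of the 18 fell (0.839% of all genes did), Fos by 1.63 log2 units (SE 0.19, limma-voom adjusted p = 0.000928). In mTECs the list median of D12 against NPC was -1.02, and -0.94 without NPC replicate 3, whose mt-Rnr2 was at 396 FPKM and whose immediate-early sum was 11100 against 6390 and 5340.

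**Figure D4:**
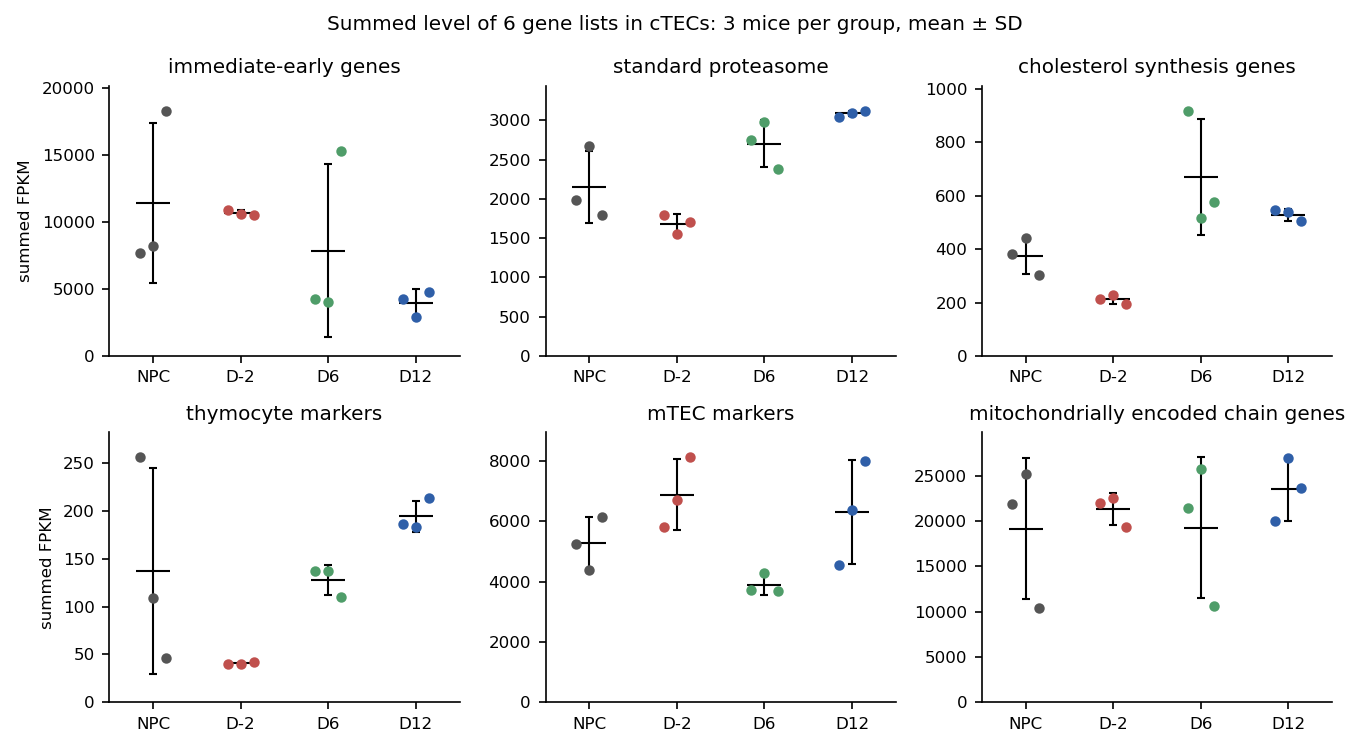
Summed FPKM (y axis, from 0) of 6 gene lists in cTECs of NPC, D-2, D6 and D12, with each mouse as a point and the mean ± SD as a black bar. The immediate-early sum is at most 4780 in the D12 samples and at least 7700 in the NPC samples, and the standard proteasome sum is at least 3050 and at most 2670.

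Steroid-responsive genes, which glucocorticoids or sex steroids are known to induce, were also mostly lower than in NPC. Of 11 tested, 9 had a negative fold change, the median was -0.75 (-0.52 without NPC replicate 3), and 6 had all D12 samples below all NPC samples (54.5%, against 7.33%). Pdk4, a kinase that restrains the use of glucose, was at 2.69, 1.80 and 4.6 FPKM at D12, 8.44, 17.8 and 13.8 FPKM in NPC and 62.6, 31.2 and 26.4 FPKM at D-2, and fell by 3.07 log2 units between D-2 and D12 (SE 0.32). Klf9, Errfi1, Sgk1, Dusp1 and Mt2 were the other members without overlap. Tsc22d3, Per1 and Mt1 were lower with overlap, at log2 fold changes of -0.34, -0.91 and -0.44. Without NPC replicate 3 these were -0.01, -0.52 and -0.14. The other 2 had a positive fold change, 0.35 (SE 0.19) for Fkbp5, a cochaperone of the glucocorticoid receptor, and 2.10 (SE 1.79) for the transcription factor Zbtb16. Of 7 steroid and prolactin receptors tested, 3 had an interval within 2-fold of NPC and all 7 overlapped with it. The glucocorticoid receptor Nr3c1 was at 33.5, 34.8 and 31.7 FPKM against 35.7, 42.6 and 33.3, and the progesterone receptor Pgr at 6.25, 6.70 and 3.93 FPKM against 7.18, 3.5 and 9.94. The receptors Gper1, Prlr and Nr3c2 had log2 fold changes of 0.94 (SE 0.57), -0.80 (SE 0.69) and -0.57 (SE 0.21). Pgr had been at 10.6, 12.6 and 18.2 FPKM at D-2 and fell by D12.

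The machinery that makes and shows peptides lay mostly on the upper side of NPC. All 14 genes of the standard proteasome, the complex that cuts proteins into peptides, had a positive fold change, with a median of 0.53 and 8 of 14 without overlap (57.1%, against 7%). Their summed FPKM was 3050, 3100 and 3120 at D12 and 1990, 2670 and 1800 in NPC. Psmb4, a structural subunit, was at 599, 550 and 593 FPKM against 288, 438 and 243, a log2 fold change of 0.87 (SE 0.18, unadjusted p = 0.000908, limma-voom). Without NPC replicate 3 the list median was 0.36. Psmb10, a catalytic subunit of the immunoproteasome and a member of the MHC class I list, was at 978, 869 and 821 FPKM at D12 against 472, 547 and 266. Its log2 fold change was 1.01 (SE 0.26), and 0.71 without NPC replicate 3. From D-2, Psmb10 rose by 2.06 log2 units (SE 0.12).

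In the MHC class I list of 16 genes, 13 had a positive fold change, the median was 0.24 and 13 had an interval within 2-fold. Without overlap, 5 lay above NPC (31.2%, against 7% of all genes) and 1 lay below (6.25%, against 7.33%). The member below was Nlrc5, a regulator of class I genes, at 16.5, 8.55 and 20.2 FPKM against 21.8, 32.7 and 27.3, a log2 fold change of -0.53 (SE 0.21, limma-voom adjusted p = 0.53). The heavy chains H2-K1 and H2-D1 were nearly level, with log2 fold changes of 0.09 (SE 0.21) and 0.06 (SE 0.18). All 10 genes of MHC class II presentation had an interval within 2-fold of NPC, with a median of 0.29. Cd74, the invariant chain that escorts class II molecules, was at 6960, 7280 and 7020 FPKM at D12 and 5270, 5850 and 6420 FPKM in NPC. The master regulator Ciita was at 90.9, 77.2 and 84.3 FPKM against 59.4, 86.8 and 54.2, with overlap. Tested lysosomal proteases other than Ctsl and Prss16 all overlapped with NPC, among them cathepsin B, Ctsb, at a log2 fold change of -0.09 (SE 0.14).

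Of the 21 genes of cholesterol synthesis, 19 had a positive fold change, with a median of 0.54 (0.33 without NPC replicate 3) and 7 of 21 without overlap (33.3%, against 7%). Sqle, squalene epoxidase, was at 76.7, 74.3 and 67.6 FPKM at D12, 36.8, 36.4 and 18.6 FPKM in NPC and 21.6, 22.1 and 35.2 FPKM at D-2. Its log2 fold change against NPC was 1.30 (SE 0.26), with a limma-voom adjusted p of 0.528 and a DESeq2 adjusted p of 0.00613. Without NPC replicate 3 that fold change was 0.99. The alternatives that kept all samples gave adjusted p-values from 0.00613 to 0.659. Fasn, fatty acid synthase, was at 111, 120 and 136 FPKM against 56.8, 85.5 and 63.8, a log2 fold change of 1.04 (SE 0.24), and at D6 it had been at 237, 147 and 180 FPKM, above every D12 sample. Between D-2 and D12, 7 of the 21 rose (0.953% of all genes did) and 0 fell. Cyp51 had the largest fold change of the list, 4.11 (SE 1.31), with 0.02 FPKM in NPC replicate 2 against 11.9 and 4.70 in the others, and its groups overlapped.

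Of the 79 cytosolic ribosomal protein genes, 77 had a positive fold change, with a median of 0.30 (0.23 without NPC replicate 3), 40 lay above NPC without overlap (50.6%, against 7%) and 71 had an interval within 2-fold. Of the 59 nuclear-encoded genes of the respiratory chain, 55 had a positive fold change, with a median of 0.29 (0.20 without NPC replicate 3) and 20 above NPC without overlap (33.9%). Of the 16 glycolysis genes, 10 had a positive and 6 a negative fold change, and all 16 intervals lay within 2-fold. Without overlap, 5 lay above NPC (31.2%, against 7%) and 1 below (6.25%, against 7.33%). Their median was 0.23, and 0.08 without NPC replicate 3. These values are relative to the total of each library. The medians of the ribosomal and respiratory lists stayed between 0.26 and 0.37 under the other scalings, filters and tests that kept all samples. Mitochondrially encoded genes spanned 10400 to 25200 summed FPKM in NPC and 20000 to 27000 at D12, with the low NPC value in replicate 3.

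All 8 keratins had a positive fold change, with a median of 0.37 (0.16 without NPC replicate 3). Krt18, a filament protein of simple epithelia, was at 6590, 6350 and 5460 FPKM at D12 and 4200, 4110 and 1820 FPKM in NPC, and Krt8, its partner, at 3270, 3160 and 2630 FPKM against 1840, 2300 and 1200. Both lay apart from NPC and rose from D-2. Without NPC replicate 3 their log2 fold changes went from 0.98 and 0.84 to 0.54 and 0.52. Krt5 and Krt14, which mark medullary and basal cells, overlapped, with log2 fold changes of 0.34 (SE 0.22) and 0.11 (SE 0.20). Of the other cTEC markers, Tbata, a thymic regulator, was at 3080, 2940 and 2970 FPKM against 1790, 2040 and 1300, while the surface proteins Ly75 and Enpep had log2 fold changes of 0.01 (SE 0.14) and 0.06 (SE 0.16). For both, the interval lay within 2-fold of NPC.

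In the BMP and TGF-beta pathway, whose BMP arm is known to keep up Foxn1 in thymic epithelium, 14 of 21 tested genes had a negative fold change and 6 lay below NPC without overlap (28.6%, against 7.33%). The list median was -0.22 (-0.23 without NPC replicate 3), and 11 of the 21 intervals lay within 2-fold of NPC. Id1, a target of BMP signals, was at 27.7, 37.3 and 39.4 FPKM at D12 against 44.8, 65.5 and 73.9 FPKM in NPC, a log2 fold change of -0.83 (SE 0.23). Id3 was at 45.6, 67.8 and 56.6 FPKM against 96.5, 89.7 and 187, and the ligand Bmp4 at 4.49, 2.57 and 6.12 FPKM against 9.93, 13.5 and 6.54. Both had a log2 fold change of -0.95. Without NPC replicate 3 the values of Id1, Id3 and Bmp4 were -0.77, -0.65 and -1.14. Id2, Id4, Smad6 and Bambi overlapped with NPC, with log2 fold changes of -0.71, -0.15, 0.18 and -0.06. Smad7 was at -0.31, and at -0.06 without NPC replicate 3. Fst, the secreted inhibitor follistatin, was at 17.3, 19.1 and 18.0 FPKM against 25.9, 19.9 and 24.7, and fell from D-2. Tgfb1 had a positive log2 fold change of 0.64 (SE 0.19) with overlap.

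Heat shock genes, which code for chaperones, split. Hspa1a, an inducible chaperone, was at 102, 115 and 127 FPKM at D12 against 189, 161 and 523 FPKM in NPC and fell from D-2, and Hspa1b and Dnajb1 also lay below NPC without overlap. The highest NPC value of Hspa1a was in replicate 3, and without it the log2 fold change went from -1.12 (SE 0.36) to -0.63. Hspe1, a mitochondrial chaperone, lay above NPC at 115, 137 and 126 FPKM against 89.1, 97.9 and 91.5. Fabp5, a fatty acid binding protein and the most abundant of the lipid-binding list, was at 1460, 1380 and 1240 FPKM at D12, 676, 1440 and 933 FPKM in NPC and 217, 212 and 153 FPKM at D-2. It rose by 2.82 log2 units from D-2 (SE 0.14) and overlapped with NPC.

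All 9 tuft cell genes had a positive fold change, with a median of 0.65 (1.23 without NPC replicate 3). Of their intervals 2 lay within 2-fold of NPC, and 0 of the 9 genes lay above NPC without overlap. The other lists given here had members with positive and members with negative fold changes. Over all genes, 7% lay above NPC without overlap and 7.33% below. Of 22 interferon-responsive genes, 10 had a positive and 12 a negative fold change and 1 was apart from NPC, the chemokine Cxcl10, at 220, 148 and 329 FPKM against 359, 356 and 1250. Of 11 acute-phase genes tested, 1 was apart, the serum amyloid gene Saa1, at 1.08, 3.53 and 0.87 FPKM against 9.20, 5.14 and 8.12. Of 20 DNA replication genes, 2 lay above and 3 below without overlap, and of 20 mitosis genes 1 above and 1 below, and the median of each list was -0.07 and 0.11. Among 15 Notch genes tested, Dll4 was the member above NPC without overlap and 1 lay below. In the thymic transcription factor list the member without overlap was Tbata, and 7 of 12 intervals lay within 2-fold.

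**Figure D5:**
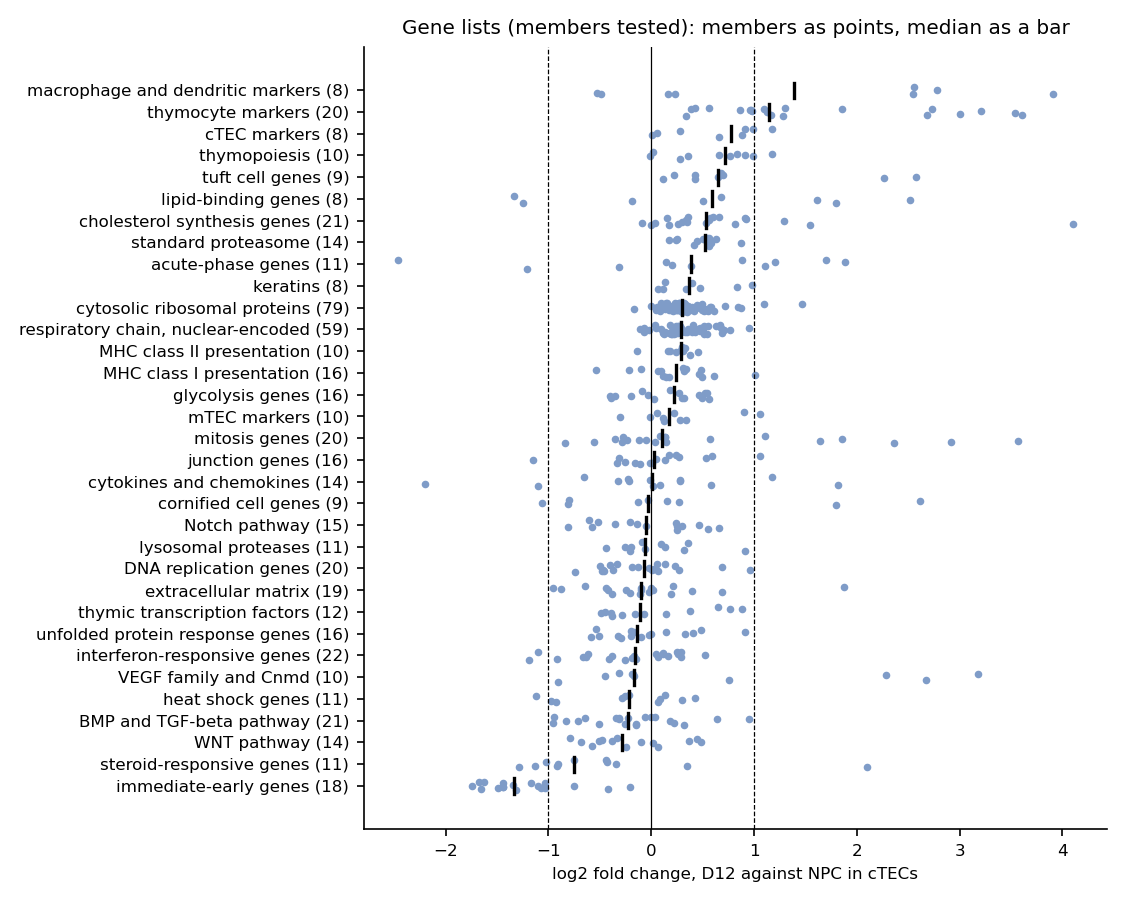
Log2 fold change of D12 against NPC in cTECs (x axis) for the tested members of 33 gene lists with 8 members or more, as points, with the list median as a black bar and dashed lines at 2-fold. The lists are ordered by their median. Immediate-early genes are lowest at -1.33, and the highest medians are those of macrophage and dendritic markers at 1.39, with members on both sides of 0, and of thymocyte markers at 1.15.

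Transcripts of other cells were also present in the samples. The summed FPKM of 20 thymocyte genes was 186, 183 and 213 at D12, 256, 109 and 46.0 in NPC and 40.1, 40.1 and 41.7 at D-2. The D12 values fell inside the NPC range, and the difference of 0.83 in the mean log2 sum gave p = 0.4 in a two-sided exact permutation test, where 3 against 3 cannot go below 0.1. The difference rested on single NPC samples, at 0.21 without NPC replicate 3 and 1.45 without NPC replicate 1. All 20 thymocyte genes had a positive fold change, with a median of 1.15 (0.65 without NPC replicate 3). Of the 20, 1 lay above NPC without overlap (5%, against 7% of all genes), and 6 rose between D-2 and D12 (0.953% of all genes did). None of the 20 was at 0 in all 6 samples. The summed FPKM was 40.5 to 62.6 in NPC and 46.5 to 54.6 at D12 for 16 macrophage and dendritic genes, 7.67 to 47.9 and 15.2 to 26.2 for 6 B cell genes, with Ms4a1 at 0 in all 6 samples, 1.04 to 4.18 and 1.40 to 3.00 for 8 endothelial genes, with Cdh5, Emcn and Tie1 at 0, 380 to 513 and 243 to 360 for 8 mesenchymal genes, where D12 lay below NPC through decorin, Dcn, and 0.00 to 2.74 and 0.86 to 3.92 for 6 erythroid genes. Pth, parathyroid hormone, was at 106, 965 and 472 FPKM in NPC and 629, 88.1 and 632 at D12. The summed mTEC markers, 4390 to 6150 FPKM in NPC and 4540 to 8000 at D12, overlapped. The part of these cells in the other results was not tested.

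The genes closest to a call are given as values, since none passed. By unadjusted p among genes with a fold change of at least 2, a level of at least 5 FPKM and no overlap, the first 10 above NPC included Gm5931, Sept2, Sqle, S1pr2, Tspan18, Fasn, Lypd1, Pakap and Hdhd3, and the first 10 below were Pde4b, Gm5970, Klf4, Gm9803, Ppp1r15b, Tiparp, Gbp11, Btg2, Fos and Socs3. Their adjusted p-values were 0.461 to 0.528 in limma-voom.

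S1pr2, a receptor for sphingosine-1-phosphate, was at 16.1, 12.3 and 12.4 FPKM at D12 against 3.29, 10.3 and 5.53, and DESeq2 called it with Sqle. Sept2, a septin of the cytoskeleton, was at 66.5, 68.4 and 57.3 FPKM against 25.1, 26.2 and 46.4, and it rose from D-2. Tspan18, a tetraspanin, was at 12.2, 9.53 and 12.7 FPKM against 4.45, 5.76 and 4.72. Pseudogenes share reads with near-identical copies, so Gm5931 and Gm5970 are uncertain. Gm5931 had no count in any NPC library, and its pooled D12 level was at least 63.6-fold higher than a floor of 3 counts over the NPC group.

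Pde4b, a phosphodiesterase that breaks down cyclic AMP, had the smallest p of all named genes below NPC. It was at 41.7, 34.0 and 43.9 FPKM at D12 and 84.6, 96.4 and 118 FPKM in NPC, and its log2 fold change was -1.26 (SE 0.17, limma-voom adjusted p = 0.461), or -1.13 without NPC replicate 3. Over the alternatives that kept all samples its adjusted p ran from 2.88e-08 to 0.577. It was at 129, 95.9 and 71.5 FPKM at D-2 and fell by D12. Socs3, an inhibitor of cytokine signals, was at 217, 139 and 218 FPKM against 375, 472 and 742, and Btg2, an antiproliferative gene, at 78.8, 64.4 and 113 FPKM against 168, 212 and 384. Tiparp, a target of the aryl hydrocarbon receptor, was at 11.1, 13.1 and 9.81 FPKM against 24, 24.1 and 22.4, and Ppp1r15b, a regulator of translation, at 6.21, 5.47 and 5.98 FPKM against 9.65, 13.0 and 14.8. In D6 replicate 3, Pde4b, Socs3, Btg2 and Tiparp were at 111, 687, 290 and 22.9 FPKM, above both other D6 samples, as the immediate-early list was.

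In mTECs of the same time points, 3 samples each, D12 against NPC also gave 0 calls (0% of 17743 genes, 1173 at an unadjusted p under 0.05, 0 by edgeR and 5 by DESeq2). The difference between cTECs and mTECs in this contrast was tested as an interaction, and 0 of 18394 genes passed (0%, 913 at an unadjusted p under 0.05, 0 by edgeR and 2 by DESeq2). That fit and its SEs treat the 12 samples as independent, although cTEC and mTEC samples with the same title number may come from 1 mouse. With time point and title number as a random block, 0 genes passed. The thymopoiesis list had a median log2 fold change of -0.36 in mTECs. Prss16 had a log2 fold change of -0.87 (SE 0.32) there, with an interaction of 1.76 (SE 0.44, limma-voom adjusted p = 0.957), and Ccl25 of -0.16 (SE 0.22), with an interaction of 1.32 (SE 0.46, limma-voom adjusted p = 0.957). For the immediate-early genes Fos and Klf4 the interactions were -0.23 and -0.69 (limma-voom adjusted p = 0.984 and 0.957). A difference between the cell types was therefore not shown for any of them.

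Single samples of later days, with no replicates, were also at hand. Prss16 was at 3250 FPKM on day 16, 1130 on day 20, 877 on day 24 and 954 on day 28, Ccl25 at 2710, 1700, 1120 and 843 FPKM on those days, and Dll4 at 46.5, 15.3, 13.7 and 10.8 FPKM. The values of days 20 to 28 were under every D12 sample for all 3 genes. The samples of days 16 and 28 had low mt-Rnr2, at 308 and 225 FPKM, as NPC replicate 3 did, and the part of this in their values was not tested.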

How the data were processed

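RNA of cTECs and mTECs sorted from mouse thymi was sequenced from stranded poly(A) libraries. According to the submitters' processing notes, the authors used bcl2fastq 2.20, Trimmomatic 0.35, STAR 2.5.1b and RSEM 1.2.28 with the build GRCm38. For each sample they deposited expected counts, which RSEM estimates per gene and leaves unnormalized, FPKM values, scaled by gene length and library, and TPM values, of which an alternative level was computed. The annotation release is not given in the sources used here. Symbols and coordinates came from GENCODE M21, which matched 50376 of 50600 identifiers.

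Samples were grouped by their labels. Expected counts were rounded and fitted with voom in limma 3.58.1 (R 4.3.3), after TMM scaling with edgeR 4.0.16, on the 6 samples of each comparison or the 12 of the interaction. Genes were filtered on a mean FPKM of 0.5 or more over all samples of the cell type compared, and for the interaction in either cell type. Intervals are at 95%. A gene was within 2-fold of NPC when its whole interval lay between log2 values of -1 and 1. DESeq2 1.42.0, edgeR's quasi-likelihood test, other filters, scalings, thresholds and units, the number in the sample titles as a block where groups share at least 2 numbers, and leaving out each sample were the alternatives. The interaction was also fitted with samples of the same time point and title number as a random block. The set drawn without D6 replicate 3 was added after the data were seen. The fit was tested on simulated counts with the same dispersion for every gene and with changes larger than 2-fold. That test does not show how often smaller changes would be called at the spread of the NPC samples. Other tools were Python 3.11.15, NumPy 2.4.6, pandas 2.3.3, SciPy 1.17.1 and matplotlib 3.10.9.

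The 40 gene lists and the comparisons were chosen with earlier results of these data known. The genes named were all 10 of the thymopoiesis list, up to 10 genes per direction with the smallest p at D12 against NPC among those with a fold change of at least 2, at least 5 FPKM in the higher group and no overlap, the 5 largest rises and falls of D6 against D-2 at the same level and without overlap, and the 2 members of each other list with the largest fold change. Further list members were named as examples after their values were seen. Some genes that these rules select are not reported here.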

Additional observations from a re-analysis of the deposited data

How the results depend on the processing

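D12 against NPC in cTECs gave 0 calls in the alternatives other than DESeq2 (23) and no filter on low values (1, the pseudogene Gm5931). D-2 against NPC gave 4 at an adjusted p of 0.05, 96 under DESeq2, 15 in the fit of all 28 cTEC samples, 5 with the filter over the samples compared and 46 with no filter. D12 against D-2 gave 542 at an adjusted p of 0.05, 522 under DESeq2, 122 in the fit of all 28 cTEC samples, 29 and 9 by limma-trend with pseudocounts of 0.1 and 0.5, and 120 to 268 with 1 sample left out. D6 against D-2 gave 690 at an adjusted p of 0.05, 757 under DESeq2, 395 with no filter, 5 by limma-trend with either pseudocount, and 60 to 135 with 1 sample left out. D12 against NPC in mTECs gave 5 under DESeq2 and 4 with no filter, and the difference between cell types gave 2 under DESeq2. With the set drawn without D6 replicate 3, 65 of 135 genes (48.1%) had an interval within 2-fold of NPC. Replicates are numbered here in accession order, which pairs no samples. By the numbers in the sample titles, D12 and NPC cTECs share 1 number, as do D6 and D-2. No fit that pairs the time points could therefore be made for them or for the difference between cell types. D12 and D-2, and D-2 and NPC, share 2 numbers each, and same-numbered samples correlated at 0.08 and at -0.07 to 0.01, so the numbers were not taken as pairs. With the title number as a replicate block, where samples without a partner do not enter the difference and 1 residual degree of freedom is left, D12 against D-2 gave 479 calls, D-2 against NPC 23, and D12 against NPC in mTECs 0. The limma-voom estimates of 19 named genes changed sign in at least 1 alternative, in 51 of the 1574 values recomputed, and none of these genes was called. Their log2 fold changes with 1 sample left out ran as follows: Cdhr5 -0.23 to 0.52, Chat -0.40 to 3.54, Ctss -1.0 to 0.28, Dscaml1 -0.27 to 0.40, Fgf21 -0.22 to 3.01, Hba-a2 -1.25 to 0.74, Il7 -0.14 to 0.18, Jchain -1.27 to 3.22, Kif20a -0.22 to 4.18, Kitl -0.10 to 0.17, Lypd3 -0.89 to 3.15, Ocln -1.98 to 0.18, Ogn -0.88 to 3.18, Plcb2 -0.39 to 3.37, Rbp4 -0.13 to 2.93, Serpina3n -0.19 to 0.89, Tek -0.57 to 1.26, Vwf -1.30 to 2.5, Zbtb16 -0.19 to 3.95. With all samples kept, those that changed sign were, under DESeq2, Il7 -0.01, Kitl 0.02, Dscaml1 0.09, Jchain -0.76, Vwf -0.79, Hba-a2 1.05, Lypd3 -0.08, and in the fit of all cTEC samples, Hba-a2 0.02, and under edgeR, Kitl 0.03, Dscaml1 0.10, Jchain -0.77, Vwf -0.77, Hba-a2 0.84, Lypd3 -0.07, and by limma-trend with a pseudocount of 0.1, Il7 -0.01, Kitl 0.19, Hba-a2 0.78, and by limma-trend with a pseudocount of 0.5, Il7 -0.01, Kitl 0.19, Hba-a2 0.37, and without TMM scaling, Il7 0, and with no filter, Dscaml1 0.01, Hba-a2 0.64, and with sample quality weights, Il7 -0.01, Kitl 0.01, Serpina3n -0.02, Cdhr5 -0.03. Of 600 recomputed list medians, 39 moved by more than the spread. The causes were not tested. Genes with 0 or few counts in a sample, such as Jchain and Vwf, are the least precise.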

Other observations

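The 2 libraries that stood apart among the cTEC groups above had counterparts elsewhere in the series. In 4 of 28 cTEC samples (NPC replicate 3, D6 replicate 3, and the single samples of days 16 and 28) mt-Rnr2 was under 400 FPKM, at 179 to 308, against 727 to 4480 FPKM in the remaining cTEC samples. The summed FPKM of the immediate-early list was 10600 to 18300 in these 4 and 2880 to 13600 in the remainder. In mTECs, 3 of 28 samples had mt-Rnr2 at 293 to 396 FPKM against 1220 to 6310, and their immediate-early sums were 7560 to 15700 against 2170 to 10700. These are values of single libraries, and no D12 sample of cTECs was among them.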
